A study of Mus musculus with 10 samples.

Results

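The 10 genes of inhibitory checkpoints were followed in melanomas grown in Siah2 WT and Siah2 KO mice: the receptors *Pdcd1*, *Ctla4*, *Lag3*, *Havcr2*, *Tigit*, *Btla* and *Cd160*, and the ligands *Cd274*, *Pdcd1lg2* and *Cd276*. They were chosen by name, with earlier results of these data known. All 10 of them were found among the 770 genes measured, which are 750 endogenous genes and 20 reference genes of the mouse NanoString PanCancer Immune Profiling panel. In this assay a fluorescent barcode is counted for each RNA molecule that a probe has bound. The tumors arose from YUMMER1.7 cells, a mouse melanoma line with mutant *Braf* and a high load of mutations, injected under the skin of the flank. Of the hosts, 5 were WT and 5 carried a deletion of Siah2, a ubiquitin ligase, in all their cells (Siah2 KO, Siah2-/-), so that the host cells of the tumor lacked Siah2 and the injected cells did not. No other allele or treatment is given for either group. The study describes its hosts as young male mice, and the labels give neither age nor sex for a single tumor. Tumors were taken on day 11 according to the labels. The legend of the heat map in the study gives a day earlier. The description of the series names another melanoma line and another deletion, whereas YUMMER1.7 and Siah2 are named by each of the 10 sample labels and by the study. The WT tumors are numbered 2 to 6 in the labels and are called WT2 to WT6 here. The Siah2 KO tumors are KO1, KO2, KO3, KO5 and KO6. Nothing beyond these separate titles describes how the samples relate to single mice, so the p-values measure the spread between these samples.

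Checkpoint receptors are surface proteins that restrain lymphocytes once they have been activated. PD-1 (*Pdcd1*) binds PD-L1 (*Cd274*) and PD-L2 (*Pdcd1lg2*) and recruits phosphatases that weaken signals of the T cell receptor and of CD28. CTLA-4 (*Ctla4*), abundant on regulatory T cells (Tregs), competes with CD28 for CD80 and CD86. LAG-3 (*Lag3*) binds MHC class II, and TIM-3 (*Havcr2*) is found on exhausted T cells as well as on macrophages and dendritic cells. TIGIT competes with CD226 and CD96 for the poliovirus receptor, and BTLA and CD160 share the ligand HVEM. B7-H3 (*Cd276*) belongs to the family of CD80 and PD-L1 and is also made by tumor and stromal cells. In tumors, interferon gamma from T and NK cells is a strong inducer of PD-L1, and receptors of this class accumulate on T cells that have met antigen for long.

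The values are normalized counts, which the authors scaled so that the geometric mean of the 20 reference genes is equal in every tumor. The factors recovered from the low values ran from 0.918 to 1.32 in WT and from 1.03 to 1.60 in Siah2 KO tumors, and the counts before the factor summed to between 382860 and 581637 per tumor over the 770 genes. On this scale the median log2 fold change, Siah2 KO minus WT, was 0.24 over all genes, and at an adjusted p under 0.05 (limma) there were 241 higher and 75 lower genes. Scaling every tumor to the same median lowered the median fold change by 0.25 and left 163 genes higher and 152 lower. Fold changes of the members are therefore also given on that scale where they are called, and those of other named genes where the call depends on it. For most of the rest only the reference gene scale is given, although their sizes shift with median scaling too. Each tumor is a mixture of injected and host cells, and more cells of a type and more RNA per cell cannot be told apart. Of the T cell genes, 6 of 11 were called higher in Siah2 KO tumors and 0 lower, with a summed level of 906 to 1649 normalized counts against 670 to 906 in WT tumors. With median scaling 5 of the T cell genes were higher and 2, *Cd4* and *Cd6*, were lower. Of the NK cell genes, 7 of 10 were higher, with sums of 1967 to 2901 against 1167 to 1460, and of the macrophage and monocyte genes 6 of 10 were higher and 1 lower, with sums of 9870 to 15703 against 9440 to 10888. Of the 6 Treg genes 2 were lower and none higher, and the 9 B cell genes had sums of at most 132 normalized counts. Of the 5 dendritic cell genes 1 was higher and 1 lower, with a median log2 fold change of −0.53. With median scaling 1 of them was higher and 3 were lower. Of the fibroblast genes 2 of 8 were higher and 6 lower, with sums of 18636 to 23421 against 30370 to 40000. The part of these cell types in the results below was not tested beyond the scales given there. The usual genes of the pigment lineage have no probe on the panel, nor has Siah2, so neither the melanoma cells nor the deletion could be checked from these values. *S100b*, a gene of melanoma cells, nerve sheath cells and dendritic cells, lay near the floor, with 1.72 ± 0.559 (n = 5, SD) normalized counts in Siah2 KO and 14.6 ± 7.96 (n = 5, SD) in WT tumors.

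Of the 10 checkpoint genes, *Cd274*, *Havcr2*, *Pdcd1*, *Lag3* and *Tigit* were higher in Siah2 KO tumors and *Cd276* was lower, each at an adjusted p under 0.05 in limma's two-sided test over all 770 genes. *Pdcd1lg2*, *Ctla4*, *Btla* and *Cd160* were not called. Against these 5 higher and 1 lower of 10 members, 31.3% of all genes were called higher, 9.74% lower and 41.0% in either direction. In all 6 called genes the groups did not overlap, with 5 genes higher in every Siah2 KO tumor and 1 lower, where 24.5% of all genes were higher and 7.01% lower without overlap, 31.6% in either direction. The median log2 fold change of the 10 members was 0.85, beside 0.24 over all genes. With 5 against 5 tumors a two-sided exact permutation test cannot give a p below 0.0079, which each of the 6 called genes reached.

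**Figure D1:**
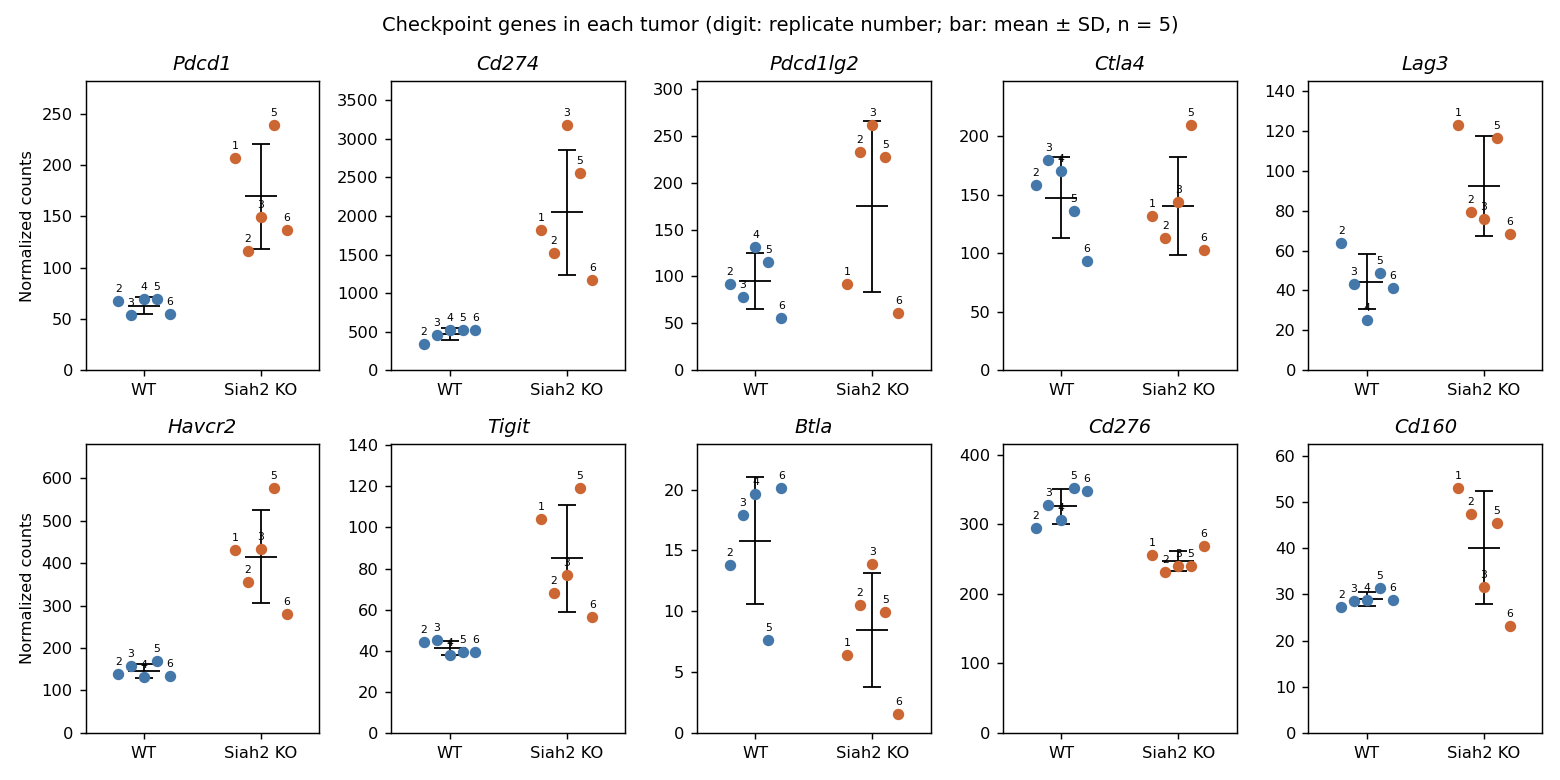
Normalized counts (vertical axis, linear and from 0, a scale of its own in each panel) of the 10 checkpoint genes in 5 WT and 5 Siah2 KO tumors, with the replicate number beside each point and the mean ± SD as a bar. The groups are apart for *Pdcd1*, *Cd274*, *Lag3*, *Havcr2* and *Tigit*, with Siah2 KO above, and for *Cd276*, with Siah2 KO below, and overlap for the other 4 genes.

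*Pdcd1* encodes PD-1, the receptor whose blockade is used in melanoma therapy. Its normalized counts were 67.4, 53.95, 69.2, 69.65 and 54.85 in WT2 to WT6, and 207, 116, 149, 239 and 137 in KO1, KO2, KO3, KO5 and KO6. The WT tumors lay close together, while the Siah2 KO tumors were spread more widely, from KO2 to KO5, and the groups did not overlap. The means were 169.6 ± 51.5 in Siah2 KO and 63.0 ± 7.90 in WT tumors (n = 5, SD), a log2 fold change of 1.37 (SE 0.20, adjusted p = 0.000677 from limma) that was 1.11 with median scaling.

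*Cd274*, the gene of PD-L1, had the largest change of the 10 and stood at place 12 of 770 in the order of log2 fold changes from the top. It had 335, 452, 515, 526 and 524 normalized counts in WT2 to WT6, and 1815, 1515, 3178, 2551 and 1175 in KO1, KO2, KO3, KO5 and KO6. The lowest Siah2 KO tumor, KO6, was above the highest WT tumor, WT5, and KO3 was the highest of all. The means of 2047 ± 811 and 471 ± 81.8 normalized counts (n = 5, SD) correspond to a log2 fold change of 2.05 (SE 0.26, adjusted p = 0.000394 from limma), or 4.13-fold, and 1.78 with median scaling.

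*Pdcd1lg2*, the gene of PD-L2, is made mainly by dendritic cells and macrophages. It had 92.3, 78.3, 132, 116 and 55.8 normalized counts in WT2 to WT6, and 91.9, 233, 261, 227 and 61.4 in KO1, KO2, KO3, KO5 and KO6. The Siah2 KO tumors were split: KO2, KO3 and KO5 were above every WT tumor, and KO1 and KO6 were within the WT range. The means were 175 ± 91.3 and 94.8 ± 30.0 normalized counts (n = 5, SD), and the log2 fold change of 0.73 (SE 0.43, 95% interval −0.22 to 1.68) had an adjusted p of 0.204 from limma. Without KO6 it was 1.05, with an adjusted p of 0.0376 from limma. With any other tumor left out it was not called (adjusted p = 0.140 to 0.370 from limma).

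The 2 ligands of PD-1 lie side by side on mouse chromosome 19 of GRCm38.p6, *Cd274* at chr19:29362107-29388095 and *Pdcd1lg2* at chr19:29410919-29472927, with 22.8 kb and 0 protein-coding genes between them. Their log2 ratio within a tumor, in which the scaling of that tumor cancels, was higher in Siah2 KO tumors by 1.32 (two-sided exact permutation p = 0.0159, adjusted p = 0.0238 over the 9 gene pairs tested). In 4 of 5 Siah2 KO tumors the ratio was above that of every WT tumor, and in KO2 it lay within the WT range. The adjusted p rose to 0.0571 without WT3, 0.0595 without WT4 and 0.0510 without WT5, where fewer divisions of the tumors are possible. Because these neighbours differed in their change, the 250 bases before a RefSeq transcription start of each are shown, both on the plus strand of GRCm38.p6. That of *Cd274* lies inside the gene's annotated span, which begins farther upstream. Capitals mark a match, on either strand, to any of 3 motifs of factors that act on these genes in the interferon and TNF responses: the IRF pair, which is GAAA, any 2 bases and GAAA again, the STAT site TTCNNNGAA, and the NF-kB consensus.
Cd274 chr19:29367188-29367437: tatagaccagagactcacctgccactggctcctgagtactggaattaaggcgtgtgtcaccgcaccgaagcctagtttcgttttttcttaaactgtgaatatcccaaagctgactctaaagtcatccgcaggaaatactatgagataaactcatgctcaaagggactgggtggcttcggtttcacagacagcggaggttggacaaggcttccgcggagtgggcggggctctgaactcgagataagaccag
Pdcd1lg2 chr19:29410669-29410918: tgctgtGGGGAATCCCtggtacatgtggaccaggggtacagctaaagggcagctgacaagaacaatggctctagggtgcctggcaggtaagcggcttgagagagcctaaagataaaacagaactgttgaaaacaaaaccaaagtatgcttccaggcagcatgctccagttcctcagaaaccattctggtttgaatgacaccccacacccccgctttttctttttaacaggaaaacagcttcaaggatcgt
The window before *Cd274* held no exact match to any of the 3 motifs, and that before *Pdcd1lg2* held 1, an NF-kB match that begins at position −244 counted from the start site. Sites that depart from a pattern by any base were not counted, so a lack of such sites is not shown. Whether these sequences bear on the difference between the 2 genes was not tested. Among the 32851 promoter windows of the same length in RefSeq, 2.98% held the IRF pair, 7.02% the STAT site and 7.25% the NF-kB consensus. Of the other members, 1 of 2 windows before *Cd160* held a STAT site at −234 and an NF-kB match at −132, and the windows before *Ctla4*, *Pdcd1*, *Cd276*, *Havcr2*, *Tigit* and *Btla* held none. No window before *Lag3* was examined.

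*Ctla4* did not follow *Pdcd1*. It had 158, 179.6, 170.1, 136 and 93.4 normalized counts in WT2 to WT6, and 132, 113, 144, 209 and 103 in KO1, KO2, KO3, KO5 and KO6. The groups covered each other, with only KO5 above the WT range, and the lowest tumor of both groups carried number 6. Means of 140.1 ± 41.9 and 147 ± 34.4 normalized counts (n = 5, SD) gave a log2 fold change of −0.08 (SE 0.23, 95% interval −0.59 to 0.42, adjusted p = 0.791 from limma), which was −0.35 with median scaling (adjusted p = 0.211) and 0.018 without KO6.

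The difference between the 2 receptors was itself tested: *Pdcd1* relative to *Ctla4* was higher in Siah2 KO tumors by 1.45 on the log2 scale (exact p = 0.0079, adjusted p = 0.0179), in 5 of 5 tumors above every WT tumor. On chromosome 1, *Ctla4* lies between its relatives *Cd28* and *Icos*, which encode stimulating receptors, 135.7 kb from the first and 44.9 kb from the second with 0 protein-coding genes in either gap. Relative to *Icos*, *Ctla4* was lower in Siah2 KO tumors by 0.85 on the log2 scale (log2 difference −0.85, exact p = 0.0079, adjusted p = 0.0179), in 5 of 5 tumors below every WT tumor. Relative to *Cd28* the difference was −0.78 (exact p = 0.0238, adjusted p = 0.0306), with 4 of 5 tumors below every WT tumor. That call was lost without any one of WT3, WT4, KO1, KO2, KO3 or KO5, at an adjusted exact permutation p of 0.0612 in each case, and *Cd28* had only 15.3 ± 7.63 and 8.36 ± 1.69 normalized counts (n = 5, SD). *Foxp3*, the factor that defines Tregs, had 29.5 ± 9.97 normalized counts in Siah2 KO and 56.7 ± 15.8 in WT tumors (n = 5, SD). It was lower by 0.92 on the log2 scale (log2 fold change −0.92, adjusted p = 0.0177 from limma). *Ctla4* relative to *Foxp3* was higher in Siah2 KO tumors, by 0.83 (exact p = 0.0079, adjusted p = 0.0179), in 5 of 5 tumors above every WT tumor.

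*Havcr2*, the gene of TIM-3, had 139, 158, 132, 170.0 and 134 normalized counts in WT2 to WT6, and 430.2, 356, 433, 577 and 279.8 in KO1, KO2, KO3, KO5 and KO6. Every Siah2 KO tumor lay above the WT tumors, KO6 the nearest to them and KO5 the farthest. The means were 415 ± 110.3 and 147 ± 16.8 normalized counts (n = 5, SD), a log2 fold change of 1.46 (SE 0.18, adjusted p = 0.000300 from limma), and 1.20 with median scaling. This was the smallest adjusted p of the 10 members.

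*Lag3*, whose product binds MHC class II on the cell that presents antigen, had 63.6, 43.2, 25.1, 48.5 and 41.4 normalized counts in WT2 to WT6, and 123, 79.3, 75.8, 116 and 68.6 in KO1, KO2, KO3, KO5 and KO6. The gap between the groups was narrow, as KO6 was just above WT2. The means of 92.6 ± 25.1 and 44.4 ± 13.8 normalized counts (n = 5, SD) gave a log2 fold change of 1.06 (SE 0.25, adjusted p = 0.00699 from limma), and 0.80 with median scaling (adjusted p = 0.0260). Scaled to the positive control probes instead, it was 0.90 with an adjusted p of 0.0804.

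*Lag3* and *Cd4*, related genes that are neighbours on chromosome 6 with 16.1 kb and 0 protein-coding genes between them, differed in their change. *Lag3* relative to *Cd4* was higher in Siah2 KO tumors by 1.35 (exact p = 0.0079, adjusted p = 0.0179), in 5 of 5 tumors above every WT tumor. *Cd4* itself, at 55.5 ± 10.6 and 67.6 ± 11.7 normalized counts (n = 5, SD), was not called (log2 fold change −0.29, adjusted p = 0.186 from limma), but was lower with median scaling (−0.55, adjusted p = 0.00541). Relative to *Cd8a*, the gene of the cytotoxic T cell coreceptor, the difference in *Lag3* was −0.06 (exact p = 0.730), with log2 ratios of −0.71 to −0.16 in Siah2 KO and −0.65 to 0.13 in WT tumors. *Cd8a* had a log2 fold change of 1.13, beside 1.06 for *Lag3*.

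*Tigit* had 44.4, 45.2, 38.0, 39.3 and 39.4 normalized counts in WT2 to WT6, and 104, 68.1, 77.0, 119 and 56.2 in KO1, KO2, KO3, KO5 and KO6. The WT tumors were nearly level, all Siah2 KO tumors were above them, and KO5 and KO1 were highest. Means of 84.9 ± 26.1 and 41.3 ± 3.29 normalized counts (n = 5, SD) gave a log2 fold change of 0.97 (SE 0.19, adjusted p = 0.00284 from limma), and 0.71 with median scaling. Scaled to the positive control probes, it was 0.81 with an adjusted p of 0.103. Relative to *Cd96*, a receptor of the same ligand, *Tigit* was higher by 0.67 (exact p = 0.119, adjusted p = 0.134), which was not called, and became 1.01 (adjusted p = 0.0143) without WT2. *Cd96* had only 12.4 ± 5.15 normalized counts in Siah2 KO and 10.2 ± 4.48 in WT tumors (n = 5, SD).

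*Btla* had the lowest counts of the 10 and is the least certain. It had 13.8, 17.9, 19.6, 7.61 and 20.1 normalized counts in WT2 to WT6, and 6.44, 10.5, 13.9, 9.93 and 1.59 in KO1, KO2, KO3, KO5 and KO6. WT3, WT4 and WT6 were above every Siah2 KO tumor, while WT5 and, just below KO3, WT2 lay within the Siah2 KO range. The means were 8.47 ± 4.67 and 15.8 ± 5.22 normalized counts (n = 5, SD). The log2 fold change of −0.97 (SE 0.46, 95% interval −1.99 to 0.044) had an adjusted p of 0.113 from limma and an exact p of 0.0635. It was −1.22 with median scaling, at an adjusted p of 0.0440, but −0.56 without KO6 (adjusted p = 0.153) and −0.0019 where values under 20 were raised to 20 (adjusted p = 0.750), as only WT6 lies above that floor.

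*Cd160*, a receptor of NK cells and cytotoxic T cells, had 27.2, 28.6, 28.8, 31.4 and 28.8 normalized counts in WT2 to WT6, and 53.0, 47.3, 31.6, 45.4 and 23.2 in KO1, KO2, KO3, KO5 and KO6. KO1, KO2 and KO5 were clearly above the narrow WT range, KO3 was just above it, and KO6 was below it. Means of 40.1 ± 12.3 and 29.0 ± 1.52 normalized counts (n = 5, SD) gave a log2 fold change of 0.40 (SE 0.20, 95% interval −0.06 to 0.85, adjusted p = 0.142 from limma). Without KO6 it was 0.57, with an adjusted p of 0.0106. With any other tumor left out it was not called (adjusted p = 0.124 to 0.282 from limma). *Btla* relative to *Cd160*, which share the ligand HVEM, was lower in Siah2 KO tumors, with a difference of −1.37 (exact p = 0.0159, adjusted p = 0.0238) and 4 of 5 tumors below every WT tumor. The call was lost without any one of WT3, WT4, WT6 or KO6, at adjusted exact permutation p of 0.0510 to 0.0595, and it was −0.40 (adjusted p = 0.163) where values under 20 were raised to 20.

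*Cd276*, the gene of B7-H3, was the only member called lower. It had 294, 328, 306, 352 and 348 normalized counts in WT2 to WT6, and 256, 231, 239.9, 240.4 and 268 in KO1, KO2, KO3, KO5 and KO6. Both groups were tight and did not overlap, with KO6 the highest Siah2 KO tumor and WT2 the lowest WT tumor. The means of 247 ± 14.8 and 326 ± 25.3 normalized counts (n = 5, SD) gave a log2 fold change of −0.39 (SE 0.085, adjusted p = 0.00457 from limma), a smaller step than in any other called member. With median scaling it was −0.66, and scaled to the positive control probes −0.56 with an adjusted p of 0.328. Of the 8 fibroblast genes 6 were lower as well, and 2, *Thy1* (0.71) and *Cxcl12* (0.87), were called higher. The part of fibroblasts in the level of *Cd276* was not tested.

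**Figure D2:**
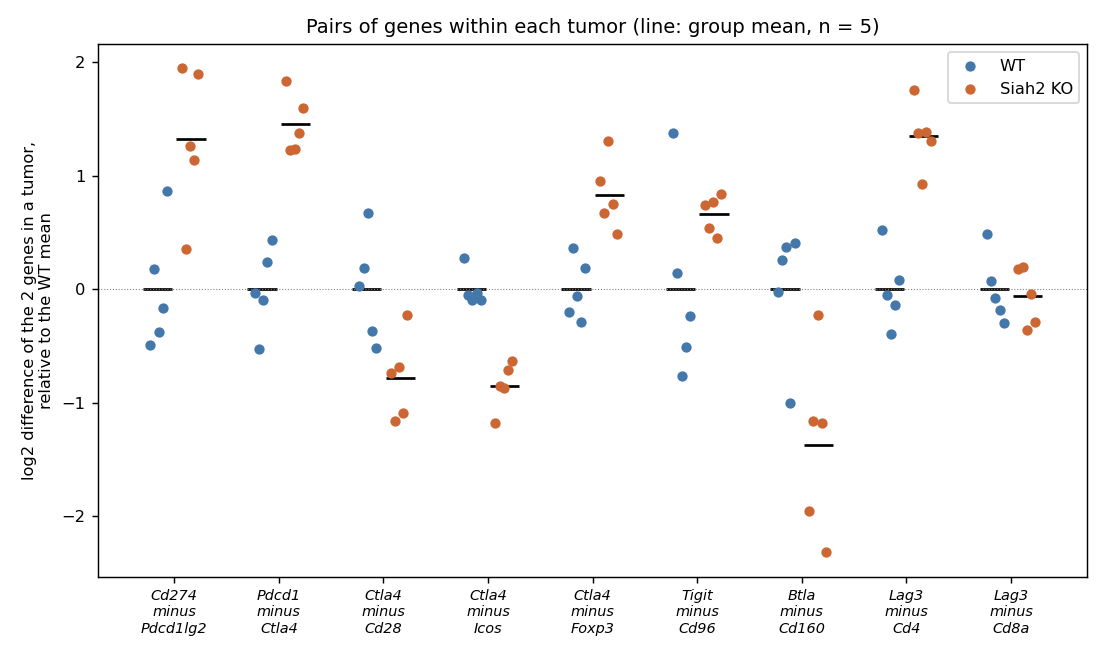
The log2 ratio of the 2 genes of each pair within a tumor, minus the mean of the WT tumors (vertical axis, log2 units), for 5 WT and 5 Siah2 KO tumors, with the group mean as a line. All 5 Siah2 KO tumors lie above the WT tumors for *Pdcd1* to *Ctla4*, *Ctla4* to *Foxp3* and *Lag3* to *Cd4* and below them for *Ctla4* to *Icos*, and 7 of the 9 pairs had an adjusted exact p under 0.05. Pairs of other genes were not tested, so this count has no share beside it and describes these 9 pairs alone.

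Since 6 of the 11 T cell genes were higher in Siah2 KO tumors, the members were also set against them. For this the median of 11 T cell genes on the log2 scale was taken off in every tumor. That median was 0.63 higher in Siah2 KO than in WT tumors (exact p = 0.0397), at 5.84 to 7.24 against 5.75 to 6.09, lowest in KO6 and highest in KO5. On this scale the log2 fold change of *Cd274* was 1.41 (adjusted p = 0.00186 from limma), that of *Havcr2* 0.83 (adjusted p = 0.0165) and that of *Pdcd1* 0.74 (adjusted p = 0.0389). *Lag3*, at 0.43 (adjusted p = 0.222), and *Tigit*, at 0.34 (adjusted p = 0.265), were not called there. *Btla*, at −1.61 (adjusted p = 0.00591), and *Cd276*, at −1.03 (adjusted p = 0.0134), were lower, and *Ctla4* was at −0.72 (adjusted p = 0.0618). These 3 members higher and 2 lower stood beside 5.19% of all genes higher and 18.2% lower, 23.4% in either direction, and the median over all genes was −0.40. The call of *Pdcd1* was lost without any one of the 5 WT tumors, KO1 or KO3 (adjusted p = 0.0509 to 0.107 from limma), and that of *Havcr2* without WT6 (adjusted p = 0.0530). Under the other alternatives on this scale, 7 in number, *Pdcd1* kept its call in 4. *Ctla4* was called without WT6, KO3 or KO6 (adjusted p = 0.0304 to 0.0440). With the mean of *Cd3d*, *Cd3e* and *Cd3g* as the reference it was called at −0.89 (adjusted p = 0.00630 from limma). It was also called with a pseudocount of 10 (adjusted p = 0.0352) and with values under 20 raised to 20 (adjusted p = 0.0327). With unequal variances *Btla* (adjusted p = 0.0841) and *Cd276* (adjusted p = 0.0998) lost their calls, and *Btla* was at −0.64 where values under 20 were raised to 20 (adjusted p = 0.0406 from limma).

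Relative to the median of 9 leukocyte genes, which was higher by 0.85 in Siah2 KO tumors (exact p = 0.0079), *Cd274* was at 1.20 (adjusted p = 0.00134), *Havcr2* at 0.61 (adjusted p = 0.00852) and *Pdcd1* at 0.52 (adjusted p = 0.0426). *Btla* was lower at −1.82 (adjusted p = 0.00561), *Cd276* at −1.25 (adjusted p = 0.000247) and *Ctla4* at −0.93 (adjusted p = 0.0118). *Cd160* at −0.45, *Pdcd1lg2* at −0.12, *Tigit* at 0.12 and *Lag3* at 0.21 were not called. On this scale 5.32% of all genes were called higher and 54.0% lower, 59.4% in either direction, so that 3 lower members of 10 are fewer than the share of all genes. *Pdcd1* lost its call without any one of WT3, WT5, WT6, KO1, KO3, KO5 or KO6 (adjusted p = 0.0521 to 0.105), and *Cd160* gained one without KO1 or KO2 (adjusted p = 0.0436 and 0.0496). Under the other alternatives on this scale, 7 in number, *Pdcd1* kept its call in 3. *Ctla4* lost its call with unequal variances (adjusted p = 0.0510) and over the 8 tumors whose numbers occur in both groups (adjusted p = 0.0548 from limma), and *Btla* was at −0.85 where values under 20 were raised to 20.

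**Figure D3:**
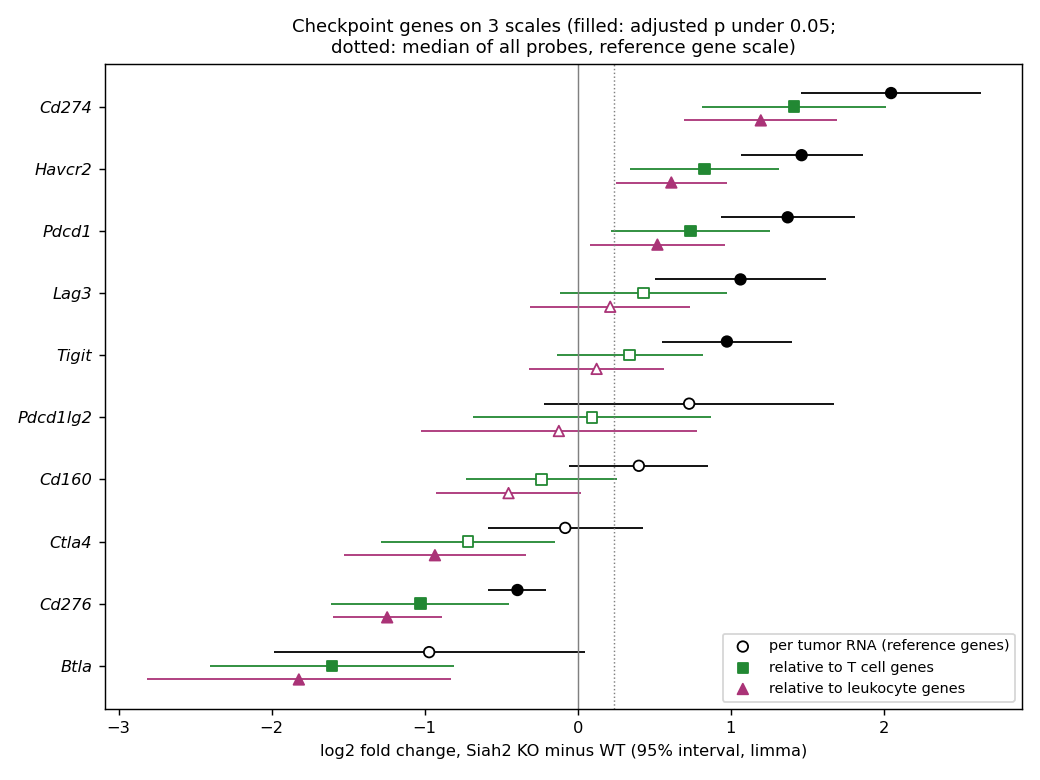
Log2 fold change, Siah2 KO minus WT (horizontal axis), of the 10 checkpoint genes with its 95% interval from limma on the deposited scale (circles), relative to T cell genes (squares) and relative to leukocyte genes (triangles), filled where the adjusted p was under 0.05. *Cd274*, *Havcr2* and *Pdcd1* are filled and to the right of 0 on all 3 scales, and *Cd276* is filled and to the left of 0 on all 3.

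The genes around the checkpoints were taken from lists of ligands, partners and regulators, of which the panel holds 61. Of these 20 were higher (32.8%, beside 31.3% of all genes), 3 lower (4.92%, beside 9.74%) and 38 not called, with a median log2 fold change of 0.33, so that the shares called higher were alike. With median scaling 13 were higher and 5 lower, where 21.2% of all genes were higher and 19.7% lower, 40.9% in either direction, and 7 of the 23 called genes lost their call. Of the ligands of CTLA-4, *Cd86* was higher at 404 ± 99.3 against 235 ± 23.0 normalized counts (n = 5, SD), a rise of 0.75 on the log2 scale (adjusted p = 0.00415), and *Cd80* by 0.43 (adjusted p = 0.00415). Each had no overlap between the groups. *Icos* was higher by 0.77 (adjusted p = 0.0255). With median scaling *Cd86* was still called at 0.49, but *Cd80* at 0.16 (adjusted p = 0.148) and *Icos* at 0.50 (adjusted p = 0.0869) were not. *Pvr*, the ligand of TIGIT, had 636 ± 109 and 298 ± 62.4 normalized counts (n = 5, SD) and rose by 1.09 on the log2 scale (adjusted p = 0.000949), while its relative *Pvrl2* was at 0.07. *Tnfrsf14*, the gene of HVEM, rose by 0.90 on the log2 scale (adjusted p = 0.00430), with 664 ± 198 normalized counts against 346 ± 49.5 (n = 5, SD) and no overlap. Of the receptors that these ligands bind, *Tigit* was called higher at 0.97, and *Ctla4* at −0.08 and *Btla* at −0.97 were not called.

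Of 11 ligands of LAG-3 and TIM-3 and their MHC class II machinery, 3 were higher and 2 lower, which for the higher genes is not above the 31.3% of all genes. *Lgals3*, the gene of galectin-3, rose by 1.38 (adjusted p = 0.000225), *H2-Ab1*, an MHC class II chain, by 0.59 (adjusted p = 0.0205) and *Cd74*, the class II invariant chain, by 0.46 (adjusted p = 0.0485). Neither class II gene was called with median scaling, *H2-Ab1* at 0.32 (adjusted p = 0.0815) and *Cd74* at 0.19 (adjusted p = 0.246). *H2-DMb2*, which helps to load class II, was at −0.72 (adjusted p = 0.00193) and *Hmgb1*, a nuclear protein that TIM-3 binds when it is released, at −0.26 (adjusted p = 0.0312). With median scaling *H2-DMb2* was at −0.98 and *Hmgb1* at −0.53. Of 8 other inhibitory receptors and ligands, *Cd244*, a receptor of NK cells and cytotoxic T cells, was higher by 1.04 (adjusted p = 0.000555) and *Ido1*, an enzyme that breaks down tryptophan, by 1.05 (adjusted p = 0.00708) at 13.6 ± 3.54 against 6.18 ± 2.18 normalized counts (n = 5, SD). Of 4 genes of receptor signalling, the kinase genes *Lck* (0.69) and *Zap70* (0.58) were higher, and *Inpp5d* and *Sh2d1a* were not called. With median scaling *Lck* was called at 0.43 and *Zap70*, at 0.32 (adjusted p = 0.101), was not.

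Of the 13 inducers of PD-L1 and their signalling genes, 6 were higher and 1 was lower, where 31.3% of all genes were higher and 9.74% lower. The list median of 0.27 was close to that of all genes. *Ifng* rose by 1.92 on the log2 scale (adjusted p = 0.00145), with 49.1 ± 21.7 normalized counts against 11.6 ± 3.69 (n = 5, SD), and *Tnf* by 1.52 (adjusted p = 0.000300). *Irf1*, the gene of a transcription factor through which interferon gamma acts on *Cd274*, rose by 0.91, *Hif1a* by 0.63 and *Stat3* by 0.31. With median scaling *Hif1a* was still called at 0.36, and *Stat3* was at 0.043 and not called (adjusted p = 0.760). *Ifnar1*, a chain of the type I interferon receptor, was at −0.25, and at −0.52 with median scaling. The receptor gene *Ifngr1* and the kinase genes *Jak1* and *Jak2* were not called. Of 14 factors of T cell activation and exhaustion, 2 were higher, a smaller share than the 31.3% of all genes. These were *Tbx21*, the gene of T-bet, which rose by 0.93 (adjusted p = 0.00330), and *Tnfrsf9*, an activation receptor, by 1.07 (adjusted p = 0.0342). The other 12, among them *Eomes* (0.42), *Tcf7* (−0.16) and *Batf* (0.34), were not called. With median scaling *Tnfrsf9* lost its call (0.82, adjusted p = 0.0755) and *Tcf7* was called lower (−0.43, adjusted p = 0.0121).

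**Figure D4:**
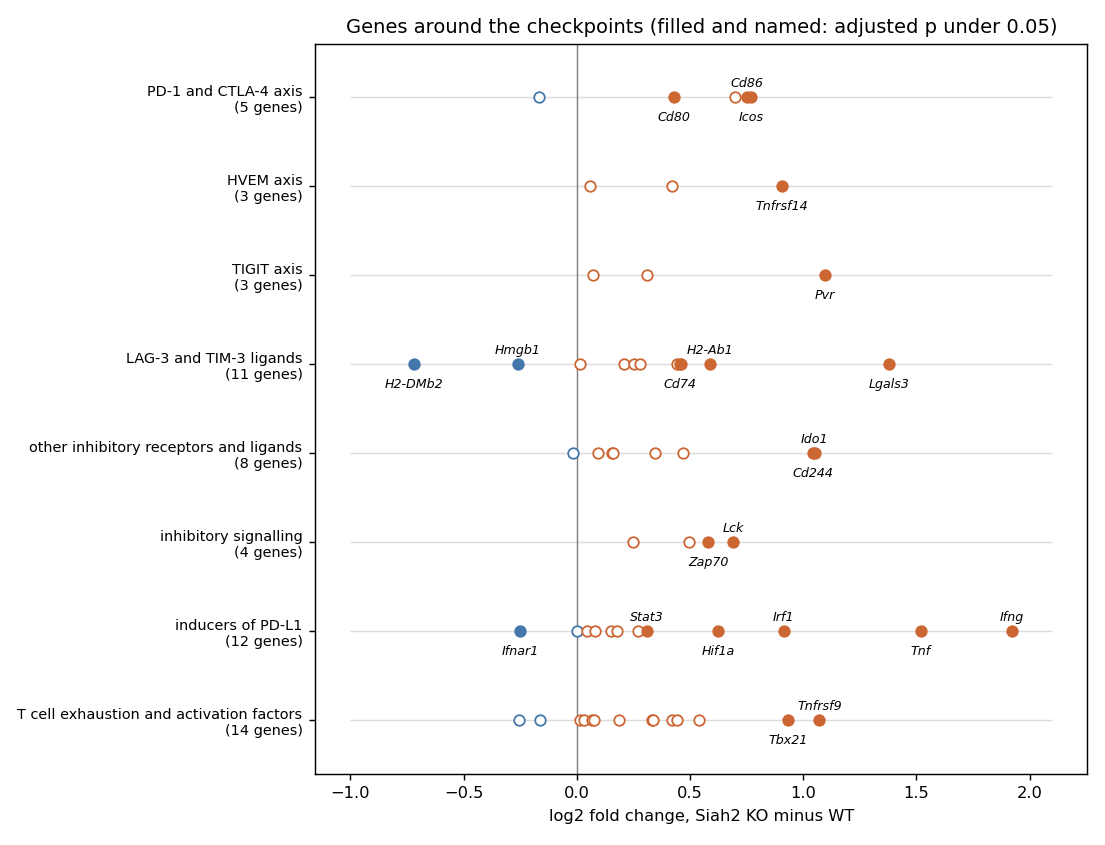
Log2 fold change, Siah2 KO minus WT (horizontal axis), of the genes around the checkpoints in 8 lists, 1 point per gene reported here, filled and named where the adjusted p was under 0.05. The named genes lie to the right of 0, up to *Ifng* at 1.92, except *H2-DMb2*, *Hmgb1* and *Ifnar1* to the left.

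Among the Siah2 KO tumors, KO6 was low for most members. It had the lowest value of the group for 8 of 10 members, all but *Pdcd1* and *Cd276*, and the highest value for *Cd276*. KO5 was highest for *Pdcd1*, *Ctla4*, *Havcr2* and *Tigit*, KO3 for *Cd274*, *Pdcd1lg2* and *Btla*, and KO1 for *Lag3* and *Cd160*. KO6 also had the lowest T cell median of the group, and KO5 the highest. The same held for the summed normalized counts of all 770 genes, 575773 in KO6 and 741789 in KO5. The sum of KO6 lay within the WT range of 512955 to 585366. The share of all genes for which KO6 was lowest is not given here, so this order is not particular to the members. In the WT tumors the extremes were spread over all 5, with WT5 highest for 5 members. The labels give nothing that sets KO6 or KO5 apart. Without KO6, 8 members were called in place of 6, and 334 of all 770 genes in place of 316.

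The genes most like each member were found by the Pearson correlation of log2 deviations from the group means, over 10 tumors and the 602 genes whose mean reached 20 normalized counts. The points share each tumor's scaling factor, and the correlations are a description. *Cd274* was most like *Irf8* (r = 0.95), *Tap1* (0.95) and *Irf1* (0.93), the genes of 2 interferon-regulated transcription factors and of a peptide transporter. *Pdcd1lg2* was most like *Ccl9* (0.92), *Clec7a* (0.90) and *Ccl6* (0.89), genes of myeloid cells. *Havcr2* was most like the macrophage gene *Cd68* (0.96), with *Traf6* (0.95) and *Abca1* (0.95). *Pdcd1* was most like *Map4k2* (0.95), *Vcam1* (0.81) and *Cd3g* (0.81), *Lag3* like *Cmah* (0.84), *Cd3e* (0.79) and *Ccl5* (0.78), and *Tigit* like *Tlr8* (0.93), *Cd38* (0.90) and *Cd3d* (0.89). A CD3 chain was among the 3 nearest genes of each of these receptors but the nearest of none. One was also among those of *Cd160*, after *Tlr5* (0.86) and *Gzmk* (0.85), with *Cd3d* at 0.79. *Ctla4* was most like *Tnfrsf4* (0.96), the gene of OX40, with *Col1a1* (0.91) and *Vwf* (0.90). *Cd276* was most like *Anp32b* (0.91), *Map2k2* (0.90) and *Prf1* (0.80). *Btla* lay under the mean of 20 normalized counts and was not matched.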

How the data were processed

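RNA (100 ng per tumor) was hybridized to the panel, and per the labels and the study's methods the authors used nSolver 2.0. The deposited signal of each probe is a normalized count, scaled by the authors to the geometric mean of 20 reference genes after, as the low values show, subtraction of a background constant and a floor of 1. Of the low values (under 150, above that floor), 100% lay within 0.1 of a whole step of the tumor's factor. Counting limits the precision of the lowest genes. The authors' own test was a t-test on log2 values.

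From these values log2(value + 1) was computed for 770 genes. The groups, taken from the sample titles, were compared by limma 3.58.1 under R 4.3.3 (lmFit, then eBayes; two-sided) with Benjamini-Hochberg adjustment over the 770 genes. Gene pairs were compared by a two-sided exact permutation test, adjusted over 9 pairs. *Tigit* minus *Cd226* was planned and could not be made without a *Cd226* value. Means ± SD are of normalized counts. The 10 members are all named, partner genes by list, and the 3 most alike genes by correlation. The members and lists were chosen with earlier results of these data known. Alternatives covered the scaling, the filter, floor and pseudocount, the probes tested, the test, the replicate number as a block and each tumor left out in turn. The steps were tested on simulated data. Coordinates and promoter windows are those of RefSeq for GRCm38.p6. Plots were drawn with matplotlib 3.10.9. Some genes are counted but not reported by name here. The study's other experiments were not analysed here.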

Additional observations from a re-analysis of the deposited data

Results flagged for a closer look

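In 1 of the 38 groups of tumors checked for a value far from the others, WT2 stood apart: its log2 ratio of *Ctla4* to *Icos* was −0.08, the other WT tumors lay between −0.44 and −0.38, and the gap was 0.823 of the range of the 5 WT tumors, above the critical value of 0.71. Chance flags about 1 in 20 such groups.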

How the results depend on the processing

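Of the 6 called members, *Pdcd1*, *Cd274* and *Havcr2* kept their direction and their call under all 13 alternatives and with each tumor left out. Scaling to the positive control probes gave *Lag3* 0.90, *Tigit* 0.81 and *Cd276* −0.56 without a call, *Btla* −1.14 with one, and 95 called genes in all, 60 higher and 35 lower, 3 of them partner genes. It moved the median log2 fold change of all genes by −0.16, and quantile normalization by −0.28. *Btla* was also called with median scaling (−1.22) and quantile normalization (−1.16, with 153 genes higher and 181 lower), and was at −0.0019 with values under 20 raised to 20. A filter at a mean of 20 removed *Btla*. With each tumor left out, the called members numbered 6 to 8 and the called genes 268 to 334, with *Pdcd1lg2* between 0.53 and 1.05, *Ctla4* between −0.24 and 0.018, *Btla* between −1.19 and −0.56 and *Cd160* between 0.29 and 0.57.

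The labels do not say that a replicate number marks a shared source. The deviations of same-numbered tumors correlated at 0.05, 0.14, 0.18 and 0.49, not all above the 0.1 set for pairing, and 2 of 4 numbers, 5 and 6, matched best with themselves, so the numbers were not taken as pairs and pairing of some tumors is not settled. With the replicate block over 8 tumors, 7 members and 235 of all 770 genes were called. *Pdcd1lg2* was among these members at 1.04 (adjusted p = 0.0461 from limma, and 0.128 over the same 8 tumors with no block). Relative to T cell genes, the called members numbered 5, but 2 with unequal variances, 3 with the block and 3 over the 8 tumors with no block. The share of all genes called under these alternatives is not given here, so these counts describe the members alone. *Pdcd1lg2* changed sign on that scale, at −0.085 with the *Cd3* genes as the reference and between −0.17 and 0.36 with a tumor left out. Relative to leukocyte genes it was 0.25 over 8 tumors, with the block or with none, and between −0.36 and 0.15 with a tumor left out, and *Lag3* was at −0.025 over 8 tumors, again with the block or with none.

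Of the gene pairs, raising values under 20 to 20 gave *Ctla4* to *Cd28* −0.17 and *Btla* to *Cd160* −0.40 without a call, and *Tigit* to *Cd96* 0.97 with one, as did a pseudocount of 10 (0.70). *Cd96* had at most 20.3 normalized counts in any tumor. That floor therefore left it almost constant, and the ratio there repeats the change of *Tigit* itself. Over the 8 tumors with no block, where fewer divisions exist, 0 pairs were called at an adjusted exact p under 0.05, with *Cd274* to *Pdcd1lg2* at 1.07, *Pdcd1* to *Ctla4* at 1.33, *Ctla4* to *Cd28* at −0.63, *Ctla4* to *Icos* at −0.79, *Ctla4* to *Foxp3* at 0.79, *Btla* to *Cd160* at −1.13 and *Lag3* to *Cd4* at 1.15. With each tumor left out, 4 to 8 pairs were called, 4 without WT3 or WT4, with ranges of 1.16 to 1.56 for *Cd274* to *Pdcd1lg2*, −0.92 to −0.61 for *Ctla4* to *Cd28*, 0.47 to 1.01 for *Tigit* to *Cd96*, −1.66 to −1.13 for *Btla* to *Cd160* and −0.14 to 0.058 for *Lag3* to *Cd8a*. The causes were not tested. Genes near the floor, such as *Btla*, are limited by counting.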
